A study of Rattus norvegicus with 6 samples.

Results

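Gas5 and Snhg4 are small nucleolar RNA (snoRNA) host genes, long noncoding RNA (lncRNA) genes from whose transcripts snoRNAs are released. They were measured in the rat hippocampus 7 days after fimbria-fornix (FF) transection. Both were chosen by their probe identifiers, RB_p_rnol000835 for Gas5 and RB_p_rnol001152 for Snhg4, and are 2 of the 6716 probes of the deposited table. Hippocampi of adult Sprague-Dawley rats were compared, 3 of them denervated and 3 normal, with no other genotype or treatment. The denervated tissue was taken on day 7 after a wire knife had cut the FF, the fibre bundle that brings the septal cholinergic input. The normal tissue carries the label control, and a sham operation is not given in the sources used here. The paper describes the denervated and normal hippocampi as paired, without saying which samples form a pair. Each sample was hybridized in 1 colour, and the values are the authors' log2 normalized intensities, where a step of 1 stands for a doubling of signal. Rats of both sexes were used, and the labels do not give the sex of a sample.

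Most snoRNAs of mammals lie in introns of other genes. When the host transcript is spliced, the intron is trimmed to the mature snoRNA, which guides the chemical modification of ribosomal RNA. Gas5 (growth arrest-specific 5) carries box C/D snoRNAs, which guide 2′-O-methylation, and its spliced RNA is known to accumulate in cells that stop growing. In human cells this RNA has been described as a decoy for the glucocorticoid receptor. Snhg4 (small nucleolar RNA host gene 4) is known as the host of an H/ACA snoRNA of the Snora74 family, the class that guides pseudouridylation. The 2 probes of the array are assigned to the host transcripts and not to the snoRNAs. The probe sequences were not available here.

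In the RefSeq annotation of GRCr8 the 2 hosts differ in size. Gas5 (gene ID 81714, chromosome 13) spans 3322 bases, and 9 snoRNA genes lie inside it. The table names 2 of them, Snord78 and Snord81. Snhg4 (gene ID 100568448, chromosome 18) spans only 237 bases in this annotation and holds no snoRNA gene, and the gene next to it on its lower-coordinate side is Snora74a. None of the snoRNA genes inside Gas5 has a probe named on the array. The sequences around the annotated starts are shown to place the 2 genes, each with 100 bases before the start and 50 bases from it (RefSeq, GRCr8, plus strand). Gas5 lies at chr13:75836863-75837012 and Snhg4 at chr18:27432426-27432575. Capitals mark the motifs searched for on both strands, which were the TATA-like TATATA and the TATA box TATAAA, the cyclic AMP response element TGACGTCA, the GC box GGGCGG, and the CCAAT box.
Gas5: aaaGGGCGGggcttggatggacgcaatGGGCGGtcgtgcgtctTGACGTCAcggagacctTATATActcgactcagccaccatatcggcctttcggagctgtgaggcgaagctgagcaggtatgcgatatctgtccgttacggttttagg
Snhg4: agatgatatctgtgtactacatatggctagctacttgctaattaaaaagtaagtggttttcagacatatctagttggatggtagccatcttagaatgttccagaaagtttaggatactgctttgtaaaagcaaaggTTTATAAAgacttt
In the 300 bases that the reference holds for each gene, Gas5 had a TATATA 40 bases and a TGACGTCA 57 bases before its start, and 5 copies of GGGCGG upstream. The share of all 33469 promoters that hold each motif is 6.15%, 1.83% and 33.1%. The window of Snhg4 held none of these and no CCAAT, and TATAAA was found after the start, on both strands in overlapping letters (14.2% of promoters hold it). CCAAT, found in 37.5% of promoters, was absent from the Gas5 window too. The GC content was 60.3% for Gas5 and 41.0% for Snhg4, against a median of 51.7%. The dinucleotide CG occurred 20 times in the Gas5 window and 1 time in that of Snhg4 (median 7). Snora74a lies before the annotated start of Snhg4 on the plus strand. The host transcript could thus start further upstream, and the Snhg4 window need not be its promoter. A letter match is no binding site, and no promoter activity was measured here.

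The 6 arrays had medians between 10.17 and 10.19 after the authors' scaling. The values had 2 peaks, a broad one near the array medians and a narrow one below 0. Fewer values lay between the peaks, among them 727 from 2 to 5. Under 2, where a value stands for a very small signal, were 1188 of 40296 values (2.95%), from 87 probes in denervated 2 to 321 in normal 2. Over all probes denervated 3 was closest to normal 2 (Pearson correlation across probes 0.87), which in turn was closer to it than to normal 1 (0.73) or normal 3 (0.76). Each of these 2 samples was thus closest to the other, although they come from different groups. The group differences are given with and without them. They are called below the samples that stood apart. Both also had the most values under 2, 321 in normal 2 and 294 in denervated 3. Denervated 3 was, however, also close to denervated 1 (0.84), normal 3 (0.83) and normal 1 (0.81), and less so to denervated 2 (0.76). Denervated 2 was closer to normal 1 and normal 3 (0.89 each) than to denervated 1 (0.84). These were the highest correlations between the groups. Of the neuron-enriched noncoding RNAs fixed as a check of the tissue, 4 of 11 had a named probe. Bc1, a neuronal cytoplasmic RNA, lay at 15.97 or more in all samples, at the upper end of the scanner. Mir9-3 lay at 8.22 or more, while Mir124-3 and Mir9-2 had values under 2. In the study's RNA quality table the integrity of all normal samples was below that of all denervated samples, so that RNA integrity and group cannot be told apart.

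Gas5 lay far above the low values in every hippocampus, and no difference between the groups could be shown. Its log2 intensity was 9.72, 9.997 and 10.63 in denervated 1, 2 and 3, and 9.32, 10.53 and 9.89 in normal 1, 2 and 3. The groups overlapped over most of their range, with a denervated sample at the top and a normal sample at the bottom. The means were 10.12 ± 0.47 (SD, n = 3) after denervation and 9.91 ± 0.61 (SD, n = 3) in the normal hippocampus. The log2 difference was 0.20 ± 0.44 (SE), a 1.15-fold higher mean, and its 95% interval ran from -0.87 to 1.27. This interval holds a rise and a fall of Gas5 as well as no difference. The limma test over all probes gave an unadjusted p of 0.66 and a Benjamini-Hochberg adjusted p of 1.0, and the exact permutation test over the 6 samples gave a two-sided p = 0.7. Of the 9 comparisons of a denervated with a normal sample, Gas5 was higher in the denervated sample in 6 and lower in 3. The direction turned without denervated 3 (log2 difference -0.056) or without normal 1 (-0.093).

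**Figure D1:**
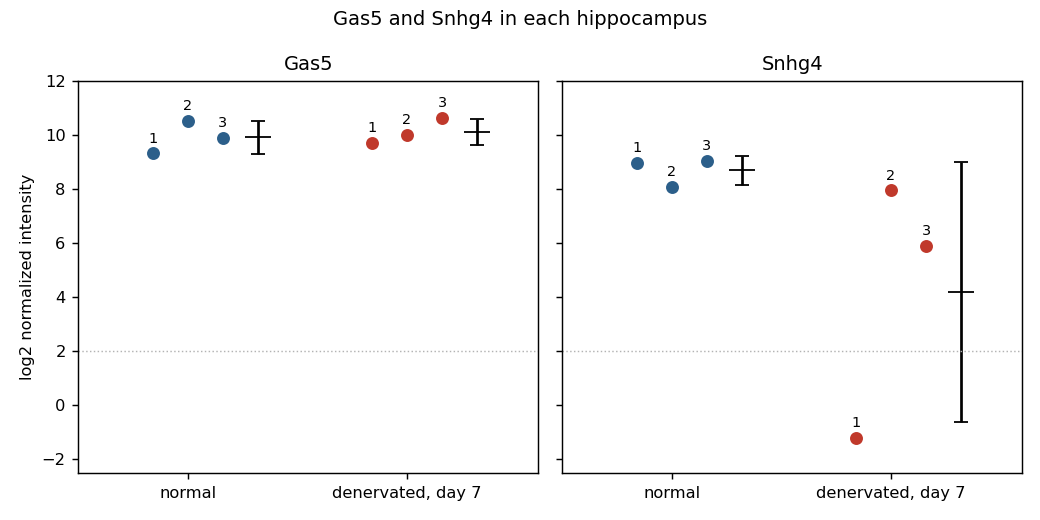
Log2 normalized intensity (vertical axis) of Gas5 and Snhg4 in the 3 normal (blue) and 3 denervated (red) hippocampi, numbered by sample; black bars give the mean ± SD of each group and the dotted line marks a log2 intensity of 2. Gas5 overlaps between the groups, and the 3 denervated samples of Snhg4 lie below the 3 normal ones, denervated 1 at -1.21.

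The order of the samples in Gas5 did not follow the groups. Denervated 3 and normal 2, the samples that stood apart, were the highest, at 10.63 and 10.53, and the other 4 lay between 9.32 and 9.997. The same order, with both of these samples above the other 4, was found in 1803 of 6716 probes (26.8%). Without these 2 samples the log2 difference of Gas5 was 0.25, with a 95% interval from -0.71 to 1.21. Relative to each array's own probes, Gas5 ranged from the 32.3th percentile in normal 1 to the 59.2th percentile in denervated 3, so it was a probe of middle brightness throughout. Its within-group SD (0.54, pooled over the groups) stood at the 49.4th percentile of all probes, whose median was 0.55.

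Snhg4 was lower in all 3 denervated than in all 3 normal hippocampi, but the size of the difference rested on 1 sample and did not pass the test in limma. Its log2 intensity was -1.21, 7.96 and 5.89 in denervated 1, 2 and 3. In normal 1, 2 and 3 it was 8.97, 8.07 and 9.04. The normal samples thus lay within 1 log2 unit of each other. The denervated samples spread from just below the normal range to the bottom of the scale. The groups were separated by 0.12, the step from normal 2 down to denervated 2. The means were 4.21 ± 4.81 (SD, n = 3) after denervation and 8.70 ± 0.54 (SD, n = 3) in the normal hippocampus. The log2 difference was -4.49 with a standard error of 2.31, and its 95% interval ran from -10.16 to 1.19. In limma the unadjusted p was 0.10 and the adjusted p was 1.0, and the exact permutation test gave p = 0.1 (two-sided), which is the lowest value possible with 3 samples in each group. In whole tissue, fewer cells that express a gene and less RNA per cell cannot be told apart.

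The background of all probes places this result. At an adjusted p under 0.05 limma called 1 of 6716 probes (0.0149%) and neither of the 2 host genes. The methods of the study ask for a log2 difference beyond 1 in either direction together with an unadjusted p under 0.05, and with the p of limma 90 probes (1.34%) passed both, again without Gas5 or Snhg4. When the p came from the rank product, the statistic by which the study's methods compute it, 352 probes (5.24%) passed both. Snhg4 was among them (unadjusted p of 6.6e-04 in the rank product test), while Gas5 was not. The adjusted value of Snhg4 in this test was 0.32. It is an estimated share of false positives computed per direction, not a Benjamini-Hochberg adjustment. In limma an unadjusted p under 0.05 alone was found for 132 probes (1.97%). All denervated samples lay below all normal samples for 170 probes (2.53%), of which Snhg4 is 1. Its difference of means was the 7th lowest of all probes, a rank that rests on the background reading of denervated 1, and without that sample it was the 120th lowest.

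The intensities on the linear scale show how far denervated 1 set the size. Snhg4 read 0.431 in denervated 1, 248 in denervated 2 and 59.2 in denervated 3. It read 503, 269 and 527 in normal 1, 2 and 3. Denervated 2 was hence close to normal 2, denervated 3 was below every normal sample by more than 2 on the log2 scale, and denervated 1 was at the background of the array. The difference of mean log2 values stands for a 22.4-fold lower signal, whereas the ratio of the linear group means was 4.22-fold. Without denervated 1 the log2 difference was -1.78 (3.42-fold), with a 95% interval from -3.71 to 0.16. With all values under 5 set to 5 it was -2.42 (5.33-fold) with an interval from -4.42 to -0.41. The unadjusted p in limma was then 0.026, so that Snhg4 passed the thresholds of the methods in this setting. It also passed them without denervated 2 (log2 difference -6.36, unadjusted p in limma 0.031). The adjusted p in limma was 1.0 in both. Of all 6716 probes, 88 passed the thresholds with the floor of 5 and 148 without denervated 2, against 90 in the main fit. Denervated 2 was the denervated sample nearest to the normal ones, so leaving it out had to widen the difference. Without denervated 3 and normal 2, the samples that stood apart, the difference was -5.64.

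**Figure D2:**
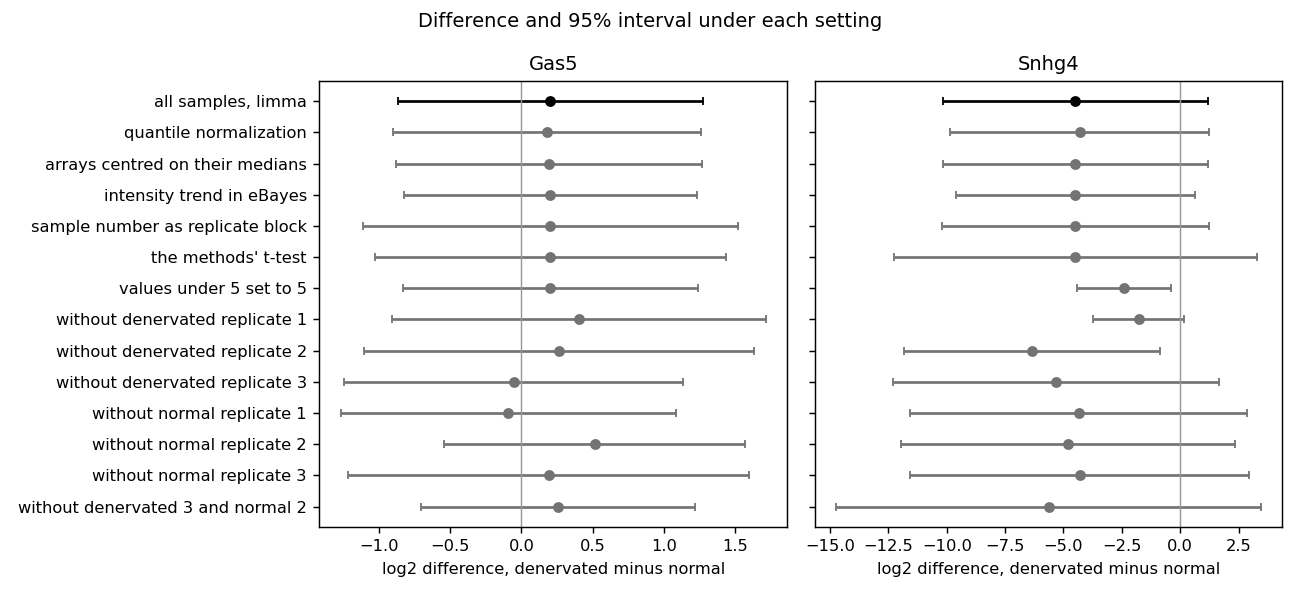
Log2 difference, denervated minus normal (horizontal axis), of Gas5 and Snhg4 with its 95% interval, for limma on all samples (black) and for the alternative settings (grey); the horizontal scales of the panels differ. Every interval of Gas5 holds 0, and those of Snhg4 lie wholly below 0 with values under 5 set to 5 and without denervated 2.

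The reading of Snhg4 in denervated 1 belonged to the narrow group of values below 0. Only 4 probes read lower on that array. A value under 2 in 1 sample, with the other 5 samples at 5 or more, was found for 127 probes (1.89%). Of these the low sample was denervated 1 for 21, normal 2 for 65, denervated 3 for 23 and normal 3 for 3. Snhg4 was thus 1 of 21 probes with such a reading on this array. The other 5 samples of Snhg4 had a mean of 7.99, and 13 of the 21 probes, Snhg4 included, had a mean at least as high. A spot that failed and a transcript that was not there give the same value in the deposited table, so they cannot be told apart here.

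**Figure D3:**
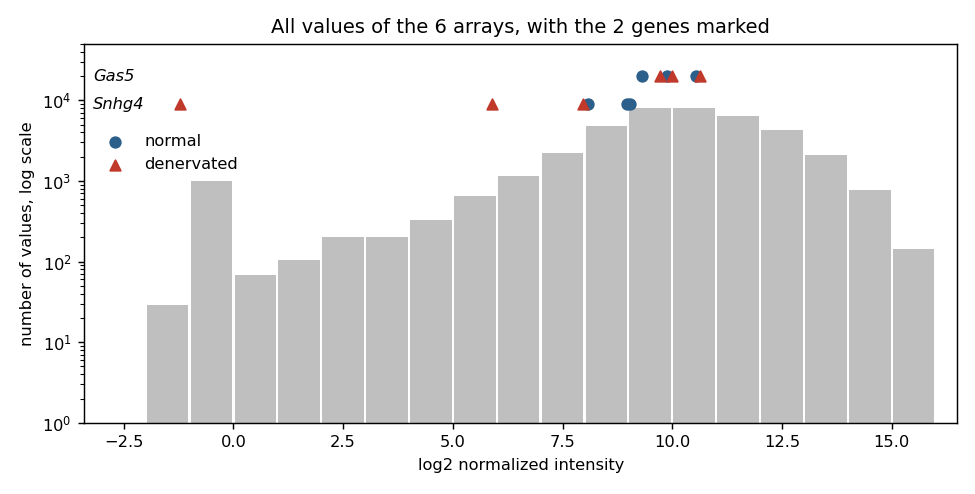
Number of values per log2 unit over all 6 arrays (bars, logarithmic vertical axis) against log2 normalized intensity, with the 6 samples of Gas5 and of Snhg4 marked above (blue circles, normal; red triangles, denervated). A narrow group of values lies just below 0, and Snhg4 in denervated 1 falls at -1.21, apart from its other 5 samples.

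The 2 host genes differed in spread. The within-group SD of Snhg4, pooled over the groups, was 3.42, at the 96.4th percentile of all probes. The mean intensity of Snhg4, 6.45, includes the low reading of denervated 1, and the other 5 samples had a mean of 7.99. Among the 1000 probes nearest to 6.45 the median SD was 1.36, and Snhg4 stood at the 85.6th percentile. This spread came from the denervated group, where its SD was at the 99.1th percentile of all probes, and within it mostly from denervated 1. Denervated 2 and 3 alone had an SD of 1.46 in place of 4.81, at the 85.7th percentile. In the normal group its SD of 0.54 was at the 51.9th percentile, close to that of Gas5 (58.0th percentile). In the normal hippocampus the spread of both genes was thus near the middle of all probes.

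**Figure D4:**
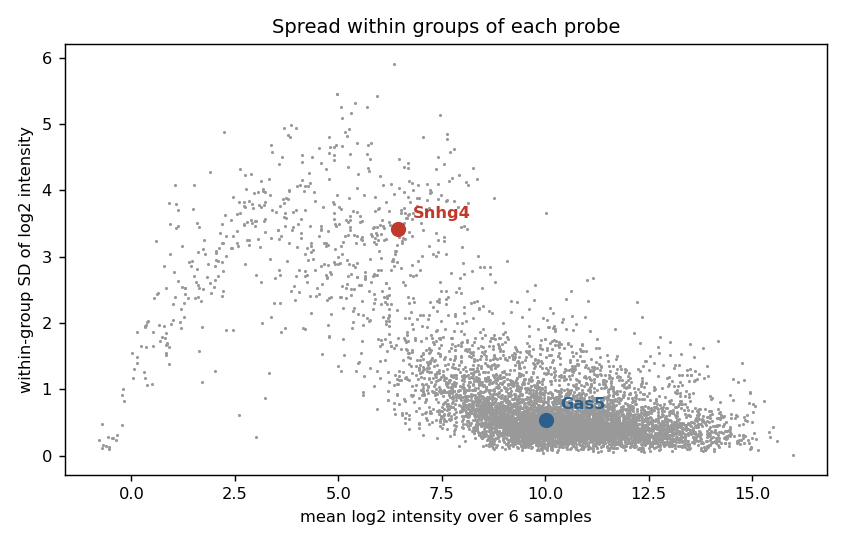
Within-group SD of log2 intensity, pooled over the 2 groups (vertical axis), against the mean log2 intensity over the 6 samples (horizontal axis) for all 6716 probes (grey), with Gas5 (blue) and Snhg4 (red). Gas5 lies at 0.54 among the bulk of probes and Snhg4 at 3.42 among dim probes of wide spread. The mean of Snhg4 includes the low reading of denervated 1.

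Whether denervation changed the 2 hosts differently was tested on the log2 value of Gas5 minus that of Snhg4 within each sample. This value was 10.93, 2.04 and 4.75 in denervated 1, 2 and 3 and 0.34, 2.46 and 0.85 in normal 1, 2 and 3. Denervated 2 fell below normal 2, and the groups overlapped. The group difference was 4.69, and the exact permutation test gave a two-sided p = 0.2. With 3 samples in each group this test cannot go below 0.1, so it could not have shown a difference at 0.05, and whether the 2 genes differ in their response was not settled. Without 1 sample this difference ranged from 2.18 (without denervated 1) to 6.62 (without denervated 2).

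Gas5 and Snhg4 are also the only members of a list of 22 snoRNA host genes with a probe named on the array. Neither passed an unadjusted p under 0.05 in limma in either direction, where 98 of 6716 probes were higher and 34 lower. The median log2 difference over all probes was 0.02. The other host genes were not analysed here, since probes matched to mouse transcripts have no gene name in the sources used. Snora36c, an H/ACA snoRNA gene that is the only snoRNA with a named probe, was at 10.45, 9.84 and 10.77 in denervated 1, 2 and 3. It was at 9.96, 11.41 and 11.03 in the normal samples. The groups overlapped, and the log2 difference was -0.45 with a standard error of 0.49 (adjusted p = 1.0 in limma). Among the 80 curated RefSeq noncoding RNAs other than microRNAs that the reference names, Snhg4 had the lowest difference with denervated 1 and the third lowest without it. The median of these 80 was -0.06, and all denervated samples were below all normal samples for 2 of them, Snhg4 included. A value under 2 in at least 1 sample occurred in 8 of the 80, as in 540 of all 6716 probes.

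RNAs of other cells that whole hippocampus holds were looked at beside Snhg4, through the microRNA genes named on the array. Of 5 oligodendrocyte markers 3 were measured, with log2 differences of -0.09 (Mir219a1), 0.97 (Mir219-2) and 0.03 (Mir338). Of 4 blood and myeloid markers 2 were measured, Mir142 with a difference of -0.011 and Mir144 with 2.24, whose normal 2 was under 2. Of 4 vessel and smooth muscle markers 3 were measured, between -0.43 (Mir126a) and 0.65 (Mir145). Mir219-2 and Mir145 were lowest in normal 2 (4.88 and 5.88), followed by denervated 3 (7.06 and 7.70). Of 2 markers of glia and progenitors none had a named probe. None of the 8 measured had an unadjusted p under 0.05 in limma (0.17 or more). Their part in the result of Snhg4 was not tested.

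The probes most like each host were taken from those with no value under 5, by the Pearson correlation of log2 intensity over the 6 samples. With so few samples many probes run alike by any such measure. Of 5968 probes, Gas5 itself included, 119 had a correlation above 0.9 with Gas5. For Gas5 the closest were the RefSeq predicted transcripts on RB_p_rnol003203 (0.99) and RB_p_rnol002585 (0.99), the Ensembl rat transcript on RB_p_rnol000892 (0.99), RB_p_rnol004476 (0.99) and RB_p_rnol004074 (0.99). All 5 were lowest in normal 1 and had denervated 3 and normal 2 as their 2 highest samples, as Gas5 had. Those running most against it were RB_p_rnol001918 (-0.98) and RB_p_rnol003557 (-0.97). For Snhg4 the closest were RB_p_rnol005914 (0.99), RB_p_rnol005466 (0.99), RB_p_rnol002043 (0.98), RB_p_rnol004208 (0.98) and RB_p_rnol000810 (0.98), and 69 probes were above 0.9. All 5 were lowest in denervated 1. RB_p_rnol005914 read 7.75 in denervated 1 and between 9.70 and 10.37 in the other samples, and RB_p_rnol004208 read 7.01 against 9.29 to 9.91. Those running most against Snhg4 were RB_p_rnol006519 (-0.98) and RB_p_rnol001932 (-0.96), the first with 10.59 in denervated 1 and 9.77 to 9.99 in the others. These correlations describe the order of 6 samples, and the samples that stood apart (for Gas5) or denervated 1 (for Snhg4) set most of it. None of these 14 probes has a gene name in the sources used here.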

How the data were processed

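RNA of 3 denervated and 3 normal hippocampi, which the paper describes as paired, was labelled with Cy5 and hybridized to lncDETECT rat arrays (GenePix 4000B scanner). The authors corrected each array by the 50% scaling method, took medians of repeated probes within an array and means between arrays of the same sample, and deposited the log2 normalized intensity. Background correction, a filter on dim probes and the annotation's build are not given in the sources used here. A second value table, with the same numbers, and lists of the authors' own comparison (fold changes and p-values) were not used as results. One probe is not reported here.

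The groups come from the labels. They were compared with limma 3.58.1 (R 4.3.3) over all 6716 probes (no block; Benjamini-Hochberg adjustment over the whole table), and by exact permutation of the 6 samples. The fit was tested on simulated data. Which samples pair is not given, so the main test ignores pairing. Its p-values set the group difference against the spread between samples within groups, which limma moderates over all probes. The number of arrays limits the precision.

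Probes were matched by RefSeq accession to the GRCr8 table, which named 388 of 1672 RefSeq transcripts. The 2 genes, the lists (22 snoRNA host genes, snoRNA genes, cell type markers) and the samples that stand apart were chosen with earlier results of these data known. The named probes are the 2 genes, the listed genes, and for each gene the 5 most and 2 least alike over 6 samples. Alternatives were quantile normalization, array medians, the upper 50% of probes, an intensity trend, the sample number as a block, the methods' t-test, the rank product test (100 permutations), the second table, a floor of 5, linear ratios, medians, and leaving out samples. The paper's methods name the Student t-test in their general statistics, and limma and the rank product for the arrays. For the rank product test the p was two-sided. In place of an adjusted p this test gave an estimated share of false positives per direction. Python 3.11.15, scipy 1.17.1 and matplotlib 3.10.9 were used.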

Additional observations from a re-analysis of the deposited data

How the results depend on the processing

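Neither Gas5 nor Snhg4 passed an adjusted p under 0.05 in any of the 15 alternative tests of each (0.80 to 1.0 for Gas5 and 0.32 to 1.0 for Snhg4). The 0.32 is the estimated share of false positives of the rank product test. Snhg4 was lower in all of these tests and by both measures without a test. Its groups do not overlap, so leaving out a sample could not turn this. Nor could the trend, block, t-test, rank product or second table, which keep its difference of -4.49. Without 1 sample its log2 difference ranged from -6.36 (without denervated 2) to -1.78 (without denervated 1), and that of Gas5 from -0.093 (without normal 1) to 0.51 (without normal 2), with -0.056 without denervated 3. The difference between the 2 genes ranged from 2.18 to 6.62 and kept its direction. At an unadjusted p under 0.05 the 2 host genes gave 0 lower in the main fit. They gave 1 lower (Snhg4) with values under 5 set to 5, with the rank product test, and without denervated 2. Of all 6716 probes, 170, 355 and 164 had an unadjusted p under 0.05 in these settings, in this order. The rank product test gave Snhg4 an unadjusted p of 6.6e-04. Without 1 sample the count for the 2 host genes was 0 to 1. Both genes lie outside the upper 50% of probes by mean intensity, where no value was obtained.

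Over all probes, the 1 call of limma after adjustment (p under 0.05) became 0 with quantile normalization, the upper 50% of probes, the intensity trend, the block, the methods' t-test and values under 5 set to 5, where 144, 78, 143, 62, 162 and 170 probes had an unadjusted p under 0.05. It became 10 with the rank product test, where the estimated share of false positives was used instead of the adjusted p. It became 3 without denervated 3 and normal 2, and 0 to 9 without 1 sample. The 90 probes at the thresholds of the methods became 34 in the upper 50%, 46 with the methods' t-test, 352 with the rank product test and 362 without denervated 3 and normal 2, and 61 to 318 without 1 sample. The cause was not tested.

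The paper describes paired hippocampi, and whether equal numbers mark the pairs is unknown. Deviations of samples of equal number correlated at -0.051, -0.52 and -0.35, which is only a hint from the data. With this number as a replicate block the unadjusted p was 0.69 for Gas5 and 0.096 for Snhg4 in limma, the adjusted p was 1.0 for both, and probes at the thresholds of the methods numbered 62. Beyond the low values, the files used hold no measure of signal against background.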
